A study of Ovis aries with 24 samples.

Results

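The omasum-enriched genes described here were the 17 of 27054 listed genes whose mRNA expression in the omasum lay clearly above that in both rumen and reticulum. They were chosen on CPM, in which each count is expressed as parts of the library total scaled to 1e6 counts. In each of 4 omasum libraries (d5 library 3 and d10 libraries 1, 2 and 3) a gene had to reach 3 CPM and 1.5 times the highest of the 12 rumen and reticulum libraries. The mean of these 4 libraries also had to reach 10% of the mean of the 6 abomasum libraries, a condition that removed 0 genes. The values that chose the genes are given as a description, without a test.

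The study sequenced total RNA from the epithelium of the 4 stomach chambers of lambs at d5 and d10. Each chamber was sampled at both ages with 3 libraries, which made 8 groups and 24 libraries. The methods of the study describe the d5 animals as healthy male Hu lambs, a Chinese breed, raised on ewe's milk with their mothers, with starter pellets from d10. No group received a treatment, and per the labels the muscle layer was taken off in all chambers. For the d5 lambs the methods give the ventral sac as the site of the rumen tissue. For the rumen at d10 and for the other chambers at both ages nothing states that the libraries came from separate lambs. P-values therefore measure the spread between these libraries, which may in part be technical.

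In ruminants, the rumen, reticulum and omasum form the forestomach and are lined by a keratinized stratified squamous epithelium. The omasum stands between the reticulum and the abomasum, the glandular stomach that secretes acid and enzymes. Its lumen is filled by broad leaves that carry the epithelium on sheets of muscle and connective tissue, and it takes up water, ions and volatile fatty acids. In the suckling lamb, the groove of the reticulum leads milk past the rumen into the omasum and abomasum.

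The deposited table names genes by Ensembl identifier and does not pair them with symbols. None of the 17 identifiers (0 matched) was found in the RefSeq sheep gene table of assembly ARS-UI_Ramb_v3.0. Functions, positions, protein and promoter sequences are therefore not analysed here, and markers of epithelium, muscle or gland could not be looked up. The genes are numbered 1 to 17 in the order of the ratio of their lowest of the 4 omasum values to their highest rumen or reticulum value. The identifier is given for genes 1 (ENSOARG00000014157), 2 (ENSOARG00000001072) and 9 (ENSOARG00000004928), which had the largest ratios or the largest differences between rumen and reticulum. In bulk tissue, fewer cells of a type and less RNA per cell cannot be told apart.

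Total counts ranged from 13041697 to 19650121 per library, so that 1 count stood for 0.0509 to 0.0767 CPM. Omasum d5 libraries 1 and 2 stood apart and were left out of the rule. For 27 genes that set the abomasum apart from the rumen (at least 100 CPM in each abomasum library and at most 1% of that in the rumen), library 1 held a median of 6.61% of the abomasum level and library 2 held 60.7%. The 4 omasum libraries of the rule held 0.0661% or less. For 39 genes that set the rumen apart in the same way, library 2 held 4.73% of the omasum level and library 1 held 89.6%. For the results that rest on these libraries, the values without them are given as well.

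The 17 genes ranged from 3.85 to 319 CPM in the mean of the 4 omasum libraries, with a median of 17.9 CPM, and 9 of them reached 10 CPM. Since CPM takes no account of gene length, levels are compared within a gene and not between genes. Their lowest omasum value was 1.54 to 4.65 times their highest rumen or reticulum value, with a median of 1.93. The lowest of the 4 omasum libraries was d5 library 3 in 7 of the 17 genes (background 35.3%), and the highest was d10 library 1 in 6 (background 18.2%). Just inside the factor of 1.5 lay ratios of 1.54, 1.60 and 1.73, and just outside lay 1.48, 1.46 and 1.45. Together the 17 genes took 0.0419% to 0.117% of the counts of an omasum library, or 0.0652% to 0.117% without d5 libraries 1 and 2. They took 0.00902% to 0.0239% in the reticulum, 0.00500% to 0.00758% in the rumen and 0.00699% to 0.0171% in the abomasum.

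**Figure D1:**
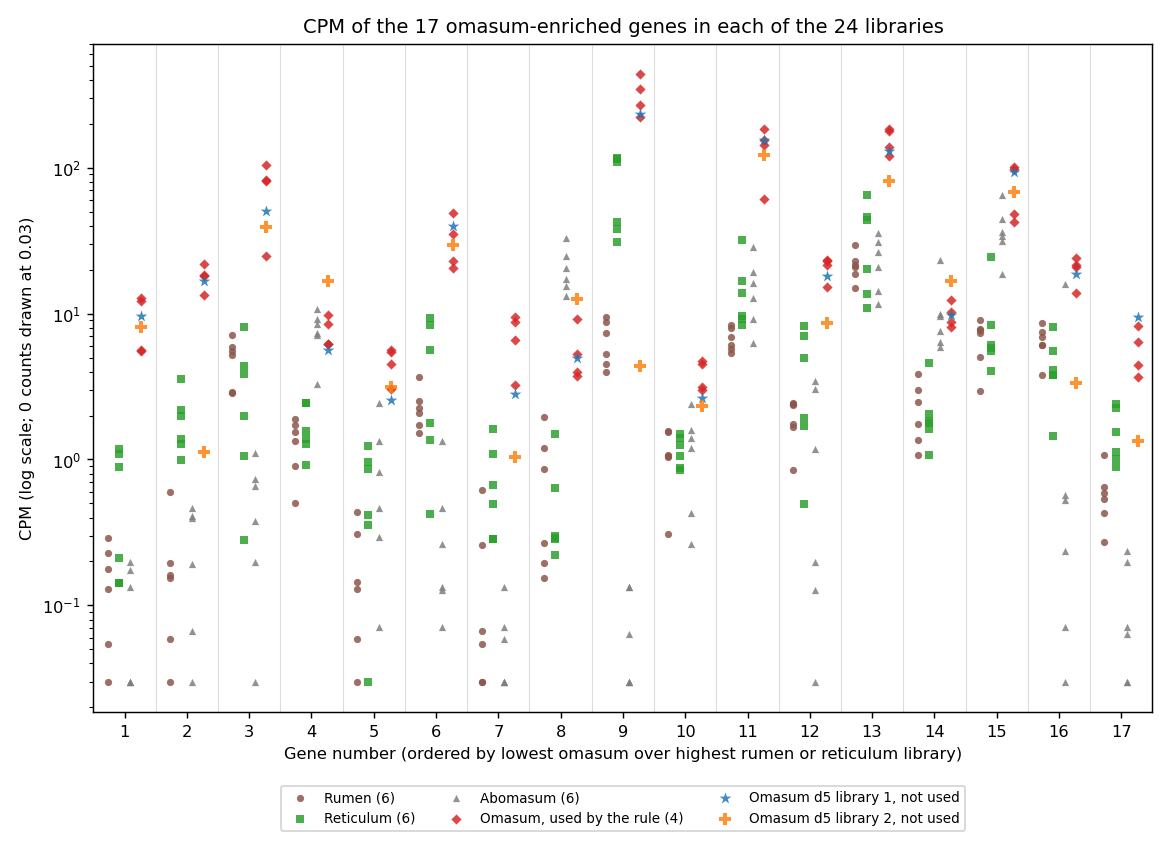
CPM (vertical axis, log scale, with 0 counts drawn at 0.03) of genes 1 to 17 (horizontal axis) in each library, where 1 point is 1 library and colours and shapes mark the chamber. The 4 omasum libraries used by the rule lie above the rumen and reticulum in every gene by construction, and the abomasum runs from 0.0172% of the omasum mean in gene 9 to 373% in gene 8.

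Gene 1 (ENSOARG00000014157) had the largest ratio. Its expression in the omasum was 9.62, 8.05 and 12.8 CPM in d5 libraries 1, 2 and 3, and 5.51, 12.2 and 5.67 CPM in d10 libraries 1, 2 and 3. In the reticulum it ran from 0.141 to 1.18 CPM (median 0.552), in the rumen from 0 to 0.288 CPM (median 0.153) and in the abomasum from 0 to 0.199 CPM (median 0.0665). All 6 omasum libraries, both of those with abomasal transcripts included, thus lay above all 18 libraries of the other chambers.

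Gene 2 (ENSOARG00000001072) was at 16.8, 1.12 and 13.5 CPM in the d5 omasum libraries and at 18.3, 18.2 and 21.8 CPM in those of d10. The reticulum ran from 0.989 to 3.55 CPM (median 1.69), the rumen from 0 to 0.601 CPM (median 0.158) and the abomasum from 0 to 0.466 CPM (median 0.294). Omasum d5 library 2 fell into the range of the reticulum, and the 5 other omasum libraries lay above every library of the other chambers.

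Gene 9 (ENSOARG00000004928) was at 235, 4.40 and 268 CPM in the d5 omasum libraries and at 437, 224 and 347 CPM in those of d10. In the reticulum its 6 values were 114, 37.8 and 42.2 CPM at d5 and 109, 31.1 and 116 CPM at d10. The rumen ran from 4.01 to 9.50 CPM (median 6.32), and the abomasum from 0 to 0.133 CPM, with 3 counts or fewer in all 6 libraries. The forestomach chambers thus stood in the order omasum, reticulum and rumen with no overlap between them, apart from omasum d5 library 2, which fell into the range of the rumen.

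The question for the 2 omasum libraries that the rule did not use was how they placed the same genes. In d5 library 1, all 17 genes were at 1.5 times or more of the highest rumen or reticulum library. Of the 11749 genes with at least 3 CPM in each of the 4 other omasum libraries, 0.834% were so, and 6.49% lay above the highest rumen or reticulum library at all. The ratios in library 1 ran from 1.68 in gene 10 to 8.12 in gene 1. The rumen and reticulum values on the other side of these ratios are those that chose the genes, so that the count is a description. Of the 17 genes, 12 lay within the range of the 4 other omasum libraries, 4 below it and 1 above it, gene 17 with 9.47 CPM (within or above in the background, 81.8%).

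In d5 library 2, 9 of the 17 genes were at 1.5 times or more of the highest rumen or reticulum library (background 3.54%). There 12 genes lay above it (background 9.73%). These counts too are a description, since the rumen and reticulum values are those that chose the genes. Within or above the range of the 4 other omasum libraries lay 9 genes (background 34%), 6 within and 3 above. Genes 2, 7, 9, 16 and 17 stood at 1.38% to 23.6% of the omasum mean and below the highest rumen or reticulum library. Genes 1, 3, 6 and 11 stood at 53.4% to 92.5%, with an abomasum mean of 0.704% to 11.3% of the omasum mean. Gene 12 stood at 41.6%, with an abomasum mean of 6.43%. The cause of these levels was not tested.

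Among genes 1, 3, 6 and 11, gene 11 had the highest counts in library 2. It was at 154, 122 and 61.0 CPM in the d5 omasum libraries and at 185, 156 and 142 CPM in those of d10. The abomasum ran from 6.30 to 28.7 CPM (median 14.5), the reticulum from 8.33 to 31.9 CPM (median 11.7) and the rumen from 5.40 to 8.32 CPM (median 6.48). Library 2 thus exceeded every library of the 3 other chambers and also omasum d5 library 3.

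Gene 3 was at 50.6, 39.0 and 24.98 CPM in the d5 omasum libraries and at 105, 81.0 and 82.0 CPM in those of d10, against at most 1.11 CPM in the abomasum, 7.15 CPM in the rumen and 8.09 CPM in the reticulum. Gene 6 was at 39.9, 29.5 and 20.7 CPM at d5 and at 48.9, 35.1 and 22.9 CPM at d10, against at most 1.33, 3.65 and 9.40 CPM in the abomasum, rumen and reticulum. In both genes library 2 lay above d5 library 3.

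Over all 404 genes with an abomasum mean of at most 5% of the omasum mean, library 2 held a median of 10.7% of the omasum mean, with quartiles of 4.78% and 30.3%. The 7 omasum-enriched genes among them had a median of 23.6% and ran from 1.38% to 92.5%, past both quartiles. Gene 9, at 1.38%, stood higher than 6.44% of the 404 genes, while gene 6, at 92.5%, stood higher than 98.3% and gene 1, at 88.8%, higher than 97.8%. Library 2 exceeded all 18 libraries of the other chambers in 9 of the 17 genes (1, 3, 4, 5, 6, 11, 12, 13 and 15, background 3.24%). Library 1 did in 14 (background 4.13%). The rule used values of these other chambers, so that both counts are a description.

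**Figure D2:**
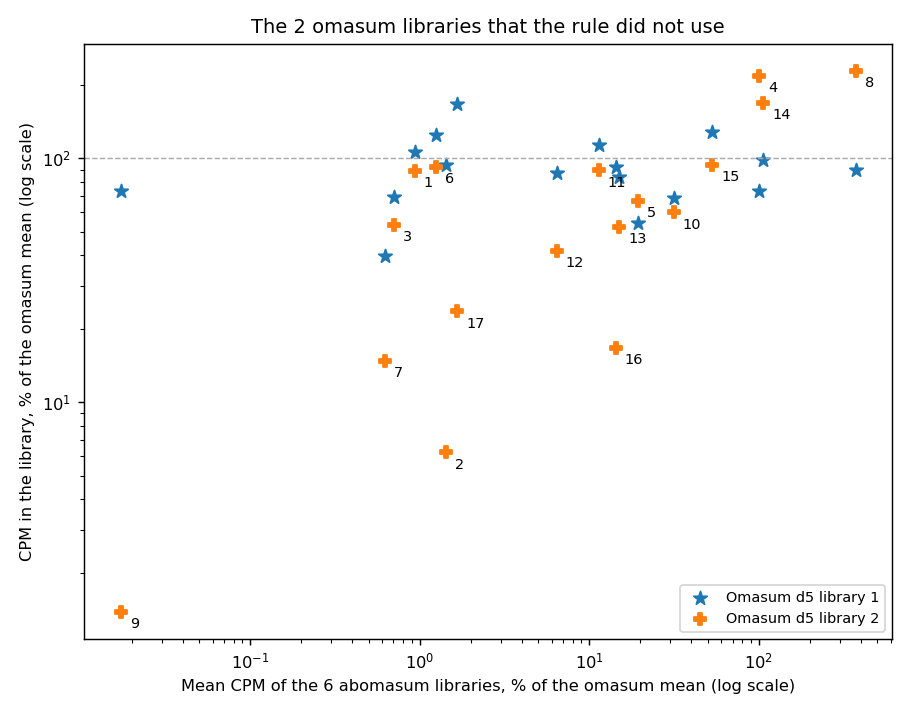
CPM in omasum d5 libraries 1 (stars) and 2 (crosses, numbered by gene) as a percentage of the mean of the 4 other omasum libraries (vertical axis, log scale), against the mean of the abomasum as a percentage of the same (horizontal axis, log scale). Library 1 stays between 39.7% and 167% in all 17 genes, while library 2 spreads from 1.38% in gene 9 to 228% in gene 8.

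The abomasum parted the genes further. In 12 of the 17 genes all 4 omasum libraries lay above all 6 abomasum libraries. Of all genes with at least 3 CPM in each of the 4 omasum libraries, 49.5% did so, so that many other genes did the same. For 7 genes (1, 2, 3, 6, 7, 9 and 17) the abomasum mean was under 2% of the omasum mean in each, between 0.0172% and 1.67%. Of these, genes 1, 7 and 9 had 3 counts or fewer in each abomasum library.

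In genes 4, 14, 15 and 16 the ranges of omasum and abomasum overlapped, and in gene 8 the abomasum lay above. Gene 8 ran from 13.3 to 32.8 CPM in the abomasum (median 18.8), and was at 5.29 CPM in omasum d5 library 3 and at 3.75, 9.20 and 3.97 CPM in those of d10. Its reticulum values ran from 0.222 to 1.501 CPM and its rumen values from 0.153 to 1.94 CPM. Genes 4, 8 and 14, whose abomasum mean was 100.2%, 373% and 106% of the omasum mean, were also the 3 genes in which omasum d5 library 2 lay above the range of the 4 others, at 218%, 228% and 169% of their mean.

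Gene 16 overlapped through 1 library only. It was at 15.8 CPM in abomasum d5 library 2 and at 0 to 0.572 CPM in the 5 others, with 13.9 to 23.98 CPM in the 4 omasum libraries.

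Among the 12 rumen and reticulum libraries, the highest value came from the reticulum in 14 of the 17 genes. In 6 of them it came from reticulum d10 library 1. How often this holds over all genes was not counted. The rule used these highest values, so that the counts are a description. In 8 genes (1, 3, 6, 7, 11, 12, 13 and 15) the same 3 reticulum libraries were the highest, d5 library 2 and d10 libraries 1 and 2. These 3 libraries were also the highest in 25.5% of the 15255 genes with a reticulum mean of at least 0.5 CPM, more than any other set of 3 (next 7.44%), so that they stood apart across the transcriptome too. In 4 of the 17 genes (1, 6, 12 and 13) each of the 3 libraries was at 2 times or more of the other 3, against 4.12% of the 15255 genes.

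Gene 13 had the clearest counts of this kind. Its reticulum values were 10.9, 43.9 and 20.2 CPM in d5 libraries 1, 2 and 3, and 46.05, 65.3 and 13.7 CPM in those of d10. The rumen was at 15.04 to 29.6 CPM, the abomasum at 11.6 to 35.5 CPM and the 4 omasum libraries at 120 to 183 CPM. Gene 6 was at 0.424, 9.40 and 1.77 CPM in the d5 reticulum libraries and at 5.63, 8.39 and 1.36 CPM in those of d10. Gene 12 was at 1.70, 7.07 and 0.495 CPM and at 8.22, 4.94 and 1.93 CPM.

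Within the reticulum these genes thus differed several-fold between libraries of 1 age. The 3 high libraries included both ages. Gene 9 went another way, with reticulum d5 library 1 and d10 libraries 1 and 3 above the others. What else the 3 libraries have in common was not tested.

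**Figure D3:**
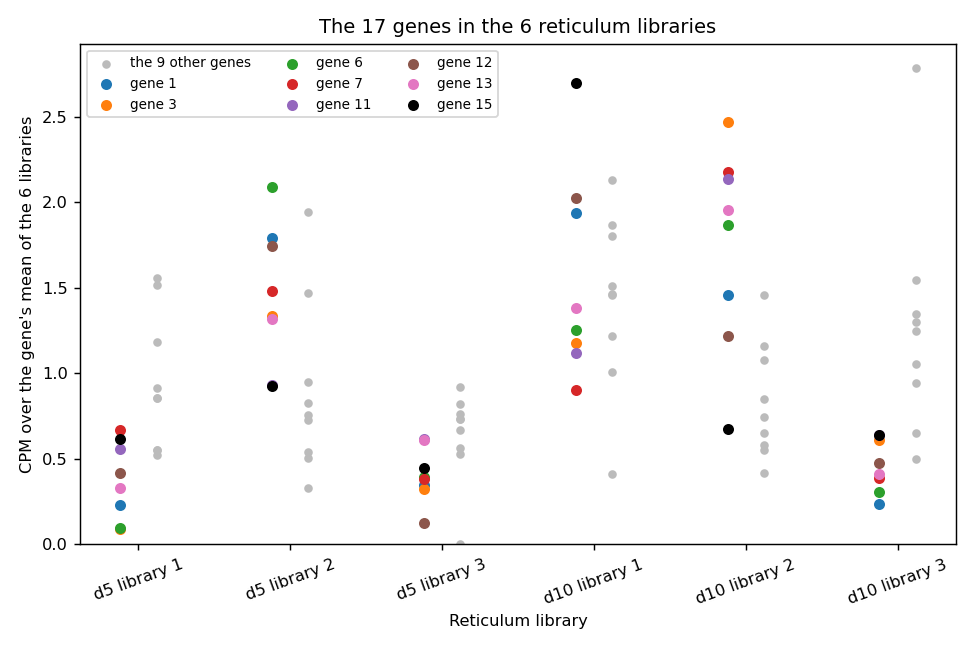
CPM of each gene divided by its mean over the 6 reticulum libraries (vertical axis) in each reticulum library (horizontal axis), with the 8 genes named in the text in colour and black and the 9 others in grey. The coloured and black points are lower in d5 libraries 1 and 3 and in d10 library 3 than in the 3 other libraries, by a gap between 20.2 and 43.9 CPM in gene 13 and one between 5.79 and 6.07 CPM in gene 15.

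The rule took rumen and reticulum together and set no direction between them, so that their difference was tested. It did cap the highest of these 12 libraries. The P-values are thus for genes chosen on the same libraries and are given as a description. The reticulum was higher than the rumen in 4 of the 16 genes tested, genes 2, 9, 11 and 17, and the rumen was higher in 0 (edgeR quasi-likelihood test over 12 libraries, adjusted P under 0.05). The fit did not pair libraries of the same number. Of all 15281 genes tested, 8.01% were higher in the reticulum and 5.65% higher in the rumen, 13.7% in all. At an unadjusted P under 0.05 there were 7 of the 16 genes and 31.1% of all genes. The median log2 fold change of rumen over reticulum was -0.84 in the 16 genes and -0.01 in all genes, with 14 of the 16 below 0. Gene 7 did not pass the filter on low counts. Of the 16 genes, 4 (1, 2, 5 and 17) passed it through the reticulum alone, where they were higher, and 1 through the rumen alone. The count and the median over the 16 genes are therefore descriptions. Among the 11 genes that passed in each chamber alone, genes 9 and 11 were called.

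Gene 9, with the values given above, was 12.6-fold higher in the reticulum (log2 fold change of rumen over reticulum -3.66 ± 0.43 SE, edgeR adjusted P = 0.000944). Gene 2, which had 3 counts or fewer in 5 of its 6 rumen libraries and passed the filter through the reticulum, was 11.3-fold higher in the fit (-3.50 ± 0.47, edgeR adjusted P = 0.00183). Its counts summed to 164 over the 6 reticulum and 18 over the 6 rumen libraries, a ratio of 9.79 after scaling to the totals, with an exact 95% interval of 6.004 to 16.9 that covers counting error only. Both genes had no overlap between the chambers.

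Gene 17, which also passed the filter through the reticulum, was 2.78-fold higher there (-1.48 ± 0.35, edgeR adjusted P = 0.0192). Its reticulum values were 2.40, 2.26 and 1.13 CPM at d5 and 1.55, 0.892 and 1.001 CPM at d10, its rumen values 0.585, 1.07 and 0.534 CPM and 0.432, 0.271 and 0.648 CPM, so that the ranges overlapped. Gene 17 lost its call without rumen d5 library 1 or 3 or d10 library 1, with an adjusted P of 0.0562, 0.0565 and 0.0511. Gene 11 was 2.27-fold higher (-1.19 ± 0.24, edgeR adjusted P = 0.00966), and its lowest reticulum value of 8.33 CPM lay just above its highest rumen value of 8.32 CPM.

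Genes 3 and 16 were the 2 genes with a positive value, 0.66 ± 0.50 and 0.45 ± 0.29 (edgeR adjusted P = 0.395 and 0.314). For gene 1 the value was -2.103 ± 0.72 (edgeR adjusted P = 0.0716). In counts, gene 1 had 53 in the reticulum and 13 in the rumen, a ratio of 4.38 with an exact 95% interval of 2.36 to 8.76 for counting error only. Genes 5 and 12 were at -1.88 ± 0.79 and -1.15 ± 0.51 (edgeR adjusted P = 0.131 and 0.145).

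**Figure D4:**
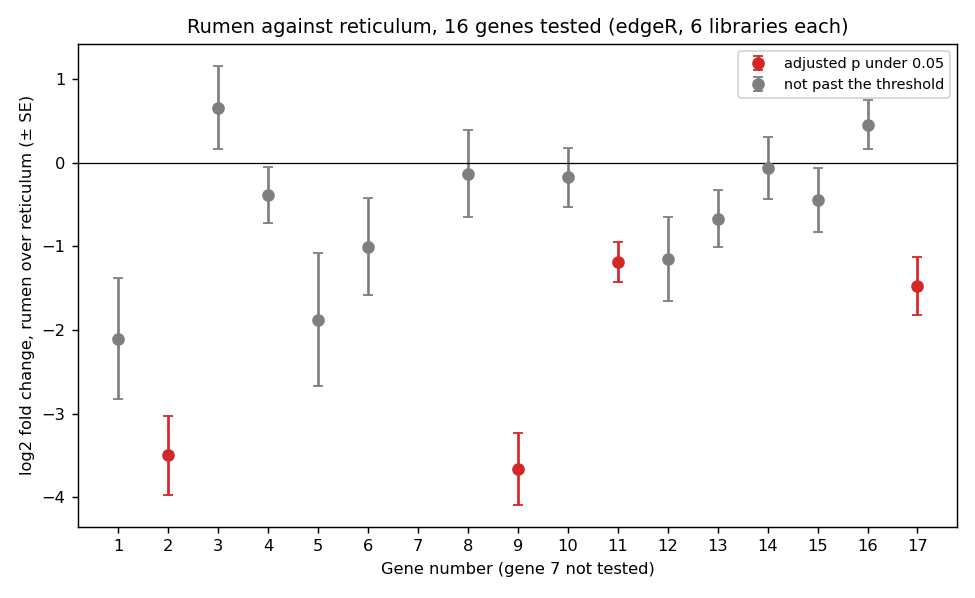
Log2 fold change of rumen over reticulum (vertical axis, points, with bars of 1 SE) for 16 genes (horizontal axis), from edgeR with 6 libraries in each chamber. Genes 2, 9, 11 and 17, in red, passed the threshold and all lie below 0, between -1.19 and -3.66. Of these, genes 2 and 17 passed the filter on low counts through the reticulum alone.

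The other contrast was age. In the omasum it is not independent of the rule, which asked for high values in all 3 d10 libraries but in only 1 of the 3 d5 libraries, and so favoured genes with more expression at d10. The omasum values are therefore a description. The counts over all genes, which were not chosen in this way, stand beside them, and nothing is read from the difference. In the rumen and reticulum the rule capped the highest library, whatever its age.

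Of the 17 genes, 0 passed the threshold between d5 and d10 in the omasum, as did 0% of all 15130 genes tested (edgeR, 3 libraries per age). At an unadjusted P under 0.05 there were 2 of the 17 genes and 7.34% of all genes. DESeq2 called 1 of the 17, gene 7, and 156 of all 14796 genes it tested. The median log2 fold change was 0.16 over the 17 genes and 0.00 over all genes. Without d5 libraries 1 and 2, which leaves 1 library at d5, 0 genes passed, 3 of the 17 and 11.5% of all genes had an unadjusted P under 0.05, and the median was 0.37.

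Gene 7 was at 2.80, 1.04 and 3.24 CPM in the d5 omasum libraries and at 8.80, 6.64 and 9.50 CPM in those of d10 (log2 fold change 1.64 ± 0.37). For gene 3, with the values above, the log2 fold change was 1.002 ± 0.30. Both fold changes include d5 libraries 1 and 2. In d5 library 3 alone, gene 7 was at 3.24 CPM and gene 3 at 24.98 CPM. In 5 of the 17 genes (2, 3, 7, 12 and 13) every d10 library lay above every d5 library (background 14.4%), and in 0 of 17 below (background 3.6%). With d5 library 3 alone standing for d5, every d10 library lay above it in 7 of the 17 genes, the count given above for this library. In genes 2, 7, 12 and 13 the lowest d5 value was that of library 2 with its abomasal transcripts, and in gene 3 that of library 3.

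In the rumen 1 of the 12 genes tested changed with age, against 9.84% of all 14536 genes, and it rose, while 0 fell (background 5.19% and 4.64%). At an unadjusted P under 0.05 there were 4 of the 12 genes and 28.9% of all genes. The gene that rose was gene 8, whose 6 abomasum libraries all lay above the 4 omasum libraries. It passed the filter on low counts through d10 alone, so that the count is a description. It was at 0.195, 0.153 and 0.267 CPM in the d5 rumen libraries and at 0.863, 1.19 and 1.94 CPM in those of d10, with a log2 fold change of 2.49 ± 0.50 (edgeR adjusted P = 0.0274). Its d5 values rest on 3, 2 and 4 counts and those of d10 on 12, 22 and 33. The ratio of the summed counts was 6.55 with an exact 95% interval of 3.25 to 14.9, which covers counting error only.

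The call of gene 8 depended on single libraries. It was lost without any one of rumen d5 libraries 1, 2 and 3 or d10 libraries 1 and 3, with an adjusted P of 0.1001, 0.0997, 0.0747, 0.0538 and 0.0549, while its log2 fold change stayed between 2.12 and 2.71. Gene 8 was also the 1 of 11 genes with no overlap between the ages in the abomasum (background 7.69% higher at d10), at 13.3, 17.2 and 15.5 CPM at d5 and at 20.4, 25.003 and 32.8 CPM at d10, where its change was 0.62 ± 0.30 (edgeR adjusted P = 0.883). In the reticulum it did not pass the filter on low counts. The CPM of 2 of 13 genes with a mean of at least 0.5 CPM in the rumen (8 and 12) lay higher in every d10 than in every d5 library (background 29.8%), and that of gene 16 lay lower (1 of 13, background 8.9%).

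In the reticulum and the abomasum, 0 of the 15 and 0 of the 10 genes tested passed the threshold for age, as did 0% of all genes in both (edgeR, 14708 and 13780 genes). At an unadjusted P under 0.05 there were 1 and 0 of them, against 7.42% and 5.84% of all genes. DESeq2 called 0 of them in either chamber. Over all genes it called 149 of 14689 in the reticulum and 124 of 13693 in the abomasum. In the reticulum 14 of the 15 genes had a positive log2 fold change, a description whose share over all genes was not counted. The median log2 fold change was 0.68 against 0.01 over all genes, and the lowest edgeR adjusted P of the 15 was 0.669. In 3 of the 17 genes (2, 4 and 10) every d10 reticulum library lay above every d5 library (background 6.43%), and in 0 of 17 below (background 5.15%). Of the 3 reticulum libraries that were high in 8 of these genes, 2 were of d10 and 1 of d5, and their part in this median was not tested. For a difference of the age effect between rumen and reticulum, 0 of 16 genes passed the threshold of edgeR and 0 that of DESeq2. Over all genes, DESeq2 called 8 of 15253 and edgeR called 0%. At an unadjusted P under 0.05 there were 3 of the 16 genes and 3.29% of all 15281 genes.

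**Figure D5:**
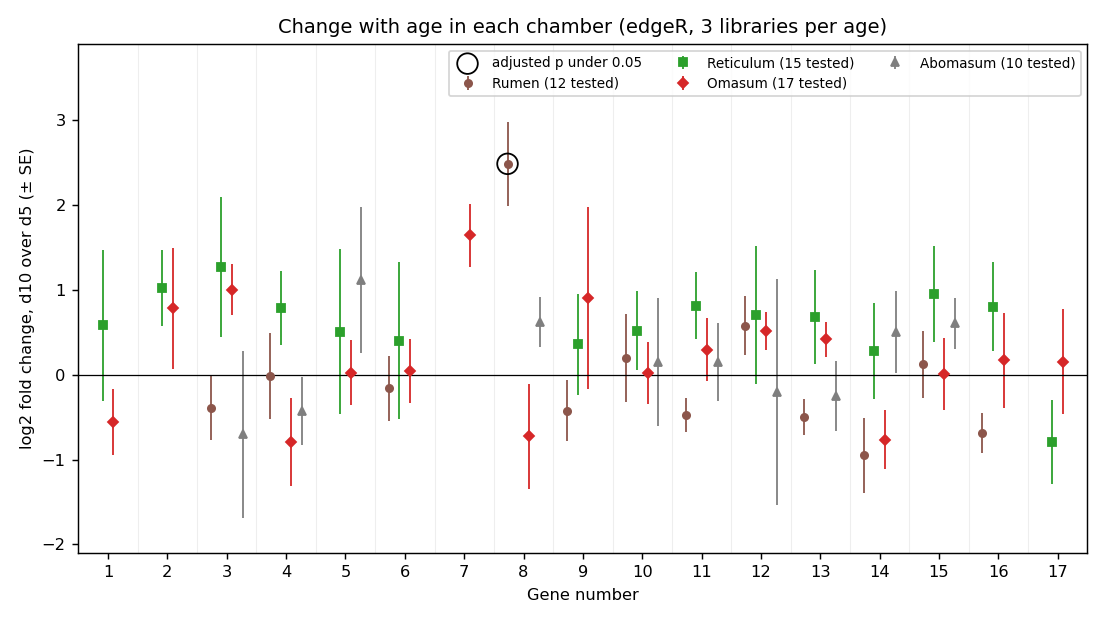
Log2 fold change of d10 over d5 (vertical axis, points, with bars of 1 SE) for each gene (horizontal axis) in the rumen, reticulum, omasum and abomasum, from edgeR with 3 libraries per age. The 1 value past the threshold, gene 8 in the rumen at 2.49, is circled, and most reticulum values lie above 0 with wide errors.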

How the data were processed

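For all 24 libraries the authors deposited whole-number counts per gene without normalization. The tools listed by the submitters' processing notes were CASAVA 1.8 and TopHat2 2.0.13. How reads were assigned to genes, on which build and annotation and with which strand setting, is not given in the sources used here. Unstranded or multiply mapped reads could thus move counts between overlapping or similar genes. The genes, and the lists and tests, were chosen with earlier results of these data known. The rule for genes given by identifier took the 2 largest ratios and the 2 largest decreases among genes past the threshold. Genes described by number alone were singled out after their values were seen. The fixed lists of markers and pathways were not run, as identifiers had no symbols.

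Differences were tested with edgeR 4.0.16 in R 4.3.3 by its two-sided quasi-likelihood test, after filterByExpr and TMM scaling of the libraries compared, with Benjamini-Hochberg adjustment over all genes tested and a threshold of 0.05. The SE was the absolute log2 fold change divided by the square root of F. DESeq2 1.42.0 was an alternative. Recovery was tested on simulated data with 200 changed genes, each with a mean of at least 50 counts. Between rumen and reticulum 99% of 4-fold and 77% of 2-fold changes were recovered. For age the shares were 99% and 44% (rumen), 70% and 6% (reticulum), 61% and 2% (omasum) and 18% and 0% (abomasum). Where the age change itself was set against that of the other chamber, rumen to reticulum, they were 46% and 3%. Genes with fewer counts were not covered. Gene 1, for example, had 53 counts summed over the reticulum libraries and 13 over the rumen libraries. The shares therefore do not tell how likely a change in such a gene was to be called. Same-numbered rumen and reticulum libraries of 1 age deviated together (r of 0.152 to 0.354, 6 of 6 pairs over 0.1). This was taken as pairing from the data alone, but the main fits did not include it. The 24 pairs of libraries within groups differed beyond sampling noise (chi-square per degree of freedom 20.2 to 745).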

Additional observations from a re-analysis of the deposited data

Results flagged for a closer look

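Gene 7 had a higher CPM at d10 than at d5 in all omasum libraries and a lower one in all rumen libraries. In the omasum, where edgeR did not call it, its mean CPM at d10 was 3.52 times that at d5. The rule had required the values of d10 and of 1 d5 library to be high. The d5 mean includes libraries 1 and 2, at 2.80 and 1.04 CPM. Library 3 alone was at 3.24 CPM, against 8.80, 6.64 and 9.50 CPM in the d10 libraries. In the rumen gene 7 had 4, 8 and 1 counts at d5 and 0, 1 and 0 counts at d10, too few to be tested. The nearest d5 and d10 libraries there had 1 count each, 0.0667 and 0.0542 CPM, and were set apart only by their totals. The difference between the chambers was not tested. Groups of 3 libraries were not screened for single outlying libraries.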

How the results depend on the processing

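Counts of genes were recomputed 131 times, and 115 of these stayed within a factor of 1.5, with 0 set beside 0 in many. The 17 genes became 14 with TMM-scaled totals (13 of them shared), 7 at a factor of 2, 112 at a factor of 1, 9 at a minimum of 10 CPM and 8 with all 6 omasum libraries. Without 1 omasum library the number ran from 17 to 67, highest without d5 library 3, and without 1 rumen or reticulum library from 17 to 27, highest without reticulum d10 library 2. For age in the rumen the 1 call became 0 with at least 10 counts in every library, in the fit of all 24 libraries (gene 8 with an adjusted p of 0.113) and in that without omasum d5 libraries 1 and 2 (0.0720), and 0 to 1 without 1 library. For age in the omasum DESeq2 gave 1, beside 156 of all 14796 genes. For rumen against reticulum at least 10 counts in every library gave 2 of the 6 genes left (9 and 11), and leaving out 1 library gave 3 to 6. The log2 fold changes of the 5 called genes kept their direction in all 91 alternatives and their call in 81. Gene 8 kept its call in 6 of 13 and gene 17 in 16 of 19, and genes 2, 9 and 11 kept it in all. Genes 2, 8 and 17 had passed the main filter only through the group where they were higher. All alternatives drew on the same libraries, so that these counts are a description. The replicate block gave 4 genes for rumen against reticulum, 1 for age in the rumen and 0 in the other tests, and so changed no call. With it the edgeR adjusted P for rumen against reticulum was 0.00492 in gene 2 and 0.000808 in gene 9. In genes 11 and 17 it was 0.0203 and 0.0198. The ranking of the reticulum libraries, an alternative chosen after seeing the data, gave 7 in place of 8 genes with TMM-scaled totals. Elsewhere the cause of a moved count was not tested. Genes with few counts limit what the fits can show.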

Other observations

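Among the 4 omasum libraries that chose them, the 17 genes had an SD of log2 CPM of 0.27 to 0.93, with a median of 0.42, against a median of 0.23 over the 11749 genes with at least 3 CPM in each of these libraries. The omasum-enriched genes had a median of 17.9 CPM and these 11749 genes 31.1 CPM, and the part of the lower level in the wider spread was not tested. Gene 3 had the widest spread, from 24.98 CPM in d5 library 3 to 105 CPM in d10 library 1.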
